A study of Mus musculus with 4 samples.

Results

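Granulocytes were found among cells that had been sorted as tdTomato-positive and free of the blood cell antigens CD45.2 and Ter119. They were chosen by their S100 and Cxcl12 levels, as cells with at least 200 CP10k (UMIs per 10000 of the cell) of S100a8 and S100a9 together and under 50 CP10k of Cxcl12, among cells with at least 500 genes and under 10% mitochondrial UMIs. This gave 67 of 2825 cells. The immobilized pool held 34 of 1399 cells, or 2.43% (exact 95% interval 1.69 to 3.38), and the control pool 33 of 1426 cells, or 2.31% (1.60 to 3.23). The levels of S100a8, S100a9 and Cxcl12 chose the cells and are given below as a description only. The 3 cells just inside the limit had 239, 243 and 247 CP10k in the immobilized pool, and 349, 357 and 396 CP10k in the control pool. The 3 just outside had 178, 161 and 143 CP10k in the immobilized pool, and 177, 88.7 and 17.7 CP10k in the control pool. Another 2 control cells with high S100 levels were left out for Cxcl12, at 185 and 191 CP10k.

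The cells came from femurs, tibias and marrow of C57BL/6J mice with the genotype Tnfsf11 tTA/+; LC1; Rosa26 LSL-tdTomato. Tnfsf11 encodes RANKL, the cytokine that makes osteoclasts. In all of these mice 1 copy of it carries a transactivator that switches on Cre and thereby a permanent tdTomato label, and doxycycline given until birth kept the label off in the fetus. The immobilized group had 2 weeks of hindlimb immobilization from 8 weeks of age, and 6 mice were pooled. The control group was 4 mice, also pooled and also 10 weeks old. Each group is therefore 1 sample, no test between mice was possible, and every interval covers counting error only. The sort sets which cells were seen, so these shares are not numbers of granulocytes in the marrow. By sex-linked transcripts, 8 immobilized granulocytes were called female and 4 male, against 9 and 1 in the control pool, and the part of sex in the differences was not tested.

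Neutrophils are the most abundant granulocytes of marrow and are made there in a fixed order. Promyelocytes fill primary granules with Mpo, Elane and Prtn3, dividing myelocytes and metamyelocytes fill specific granules with Ltf, Camp, Ngp and Lcn2, and band and segmented cells switch to gelatinase granules and to receptors such as Cxcr2. S100a8 and S100a9 form calprotectin, the main protein of the neutrophil cytosol. Granule genes are copied into RNA before the mature cell appears, so the transcripts present give the stage of a cell.

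The cells carried the markers of the neutrophil line that had no part in their choice. UMIs of Camp, Ltf and Ngp were all present in 20 of 34 immobilized and 23 of 33 control cells, and all 3 genes were at 0 in 2 immobilized and 4 control cells. Every cell had a UMI of at least 1 of the 9 specific granule genes. Itgam, the integrin chain CD11b, stood at 1600 CPM (UMIs per 1000000 over the summed cells) in immobilized and 1230 CPM in control granulocytes, against 3.24 CPM in all other immobilized and 1.47 CPM in all other control cells. Most defining genes of other blood lineages were at or near 0, but the monocyte and macrophage list was not. The 6 dendritic markers summed to 0 UMIs in the immobilized and 2 in the control pool, the 6 T and NK markers to 2 in each, the 6 basophil and mast cell markers to 1 and 0, and Cd79a, Cd79b and Slc4a1 to 0 in both. The 6 eosinophil markers summed to 0 UMIs in immobilized and 10 in control cells. The 9 monocyte and macrophage markers summed to 29 UMIs in immobilized and 77 in control cells (0 to 13.97 CP10k per cell in immobilized and 0 to 14.02 CP10k in control cells), with Fcgr1 and C1qa at 0. These UMIs lay in 15 of 34 immobilized and 19 of 33 control cells. The list stood at 422 CPM in immobilized and 538 CPM in control granulocytes. All other kept cells had less of it, at 38.4 CPM in the immobilized and 20.2 CPM in the control pool. The 6 osteoclast markers came to 73 and 212 UMIs, of which Mmp9, also a neutrophil granule gene, made nearly all, with Acp5, Ocstamp and Calcr at 0. The 8 erythroid markers came to 12 and 6 UMIs, the 8 B lineage markers to 3 and 7, the 6 progenitor markers to 6 and 11, the 5 megakaryocyte markers to 3 and 1 and the 5 endothelial markers to 2 and 1. The 8 markers of CXCL12-abundant reticular stroma came to 102 UMIs, with Lepr and Lpl at 0, and to 242 UMIs, with Lepr, Kitl and Lpl at 0. Hp, also a specific granule gene, made 88 and 222 of these. The part of these transcripts in the results was not tested.

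The reporter that gave the sort its name was close to absent in granulocytes. The summed cells held 0 tdTomato UMIs of 68760 in the immobilized pool, which allows up to 43.6 CPM by the limit of 3 counts, and 1 of 143095 in the control pool. Over both pools this was 4.72 CPM (0.120 to 26.3). Cxcl12-high stroma of the same libraries had 64.6 CPM (57.7 to 72.1) and all remaining stromal and other cells 85.96 CPM (81.1 to 90.98). At those rates the granulocytes would have held 13.7 and 18.2 tdTomato UMIs. Granulocytes thus stood 13.7-fold below Cxcl12-high stroma (2.44 to 542) and 18.2-fold below the remaining cells (3.26 to 720). Erythroid cells, also outside the intended sort, had 22.4 CPM (8.22 to 48.8) from 6 UMIs in 2 of 47 cells, and 18 B lineage cells had none, which allows up to 70.5 CPM.

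Depth differs between these classes, and thinning cells to 1000 UMIs put them on 1 scale. Shallower cells were left out, among them 6 immobilized and 1 control granulocyte. Then 0 of 60 granulocytes had a tdTomato UMI, which allows a share of up to 5.00%, against 4.64% of Cxcl12-high stroma and 8.26% of the remaining cells. Before thinning the shares were 1.49%, 23.7% and 39.9%, at median depths of 2053, 4155 and 7371 UMIs. At the thinned depth the share in granulocytes could not be told from that in Cxcl12-high stroma. The single tdTomato UMI lay in the deepest control cell, which had 18226 UMIs, 3883 genes, 14 UMIs of the division gene Mki67 and 97 of the bone collagen Col1a1. No other granulocyte had more than 7 Col1a1 UMIs. Without that cell tdTomato was at 0 of 193629 UMIs in 66 cells, which allows up to 15.5 CPM. Tnfsf11 itself, which drives the label, had 0 UMIs in all 67 granulocytes, which allows up to 14.2 CPM. Cxcl12-high stroma had 212 CPM in the immobilized and 95.3 CPM in the control pool. Over both pools the remaining cells had 16.7 CPM (14.6 to 18.95) and erythroid cells 7.47 CPM. Of these classes, the 0 sets granulocytes clearly apart from Cxcl12-high stroma only.

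The antigen that the sort had selected against was transcribed in these cells. Ptprc, which encodes CD45, stood at 1498 CPM (1223 to 1817) in immobilized and 1272 CPM (1094 to 1471) in control granulocytes. Cxcl12-high stroma had 1.48 CPM in the immobilized and 3.76 CPM in the control pool. After thinning to 1000 UMIs, 17 of 28 immobilized and 24 of 32 control granulocytes had a Ptprc UMI, against 0 of 383 and 2 of 631 Cxcl12-high cells. Without thinning 82.4% of immobilized and 93.9% of control granulocytes had one. RNA of bone cells was present too, far below its level in the remaining cells. Col1a1 stood at 989 CPM in immobilized and 1209 CPM in control granulocytes, at 770 and 470 CPM in erythroid cells of those pools, and at 1548 and 924 CPM in B lineage cells, while the remaining cells had 51528 CPM in the immobilized and 68720 CPM in the control pool. The 8 osteoblast markers together made 3970 CPM in immobilized and 3823 CPM in control granulocytes. The deepest control cell held 97 of the 173 control Col1a1 UMIs, and without it Col1a1 stood at 609 CPM (480 to 762) and the 8 markers at 3011 CPM in control granulocytes.

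**Figure D1:**
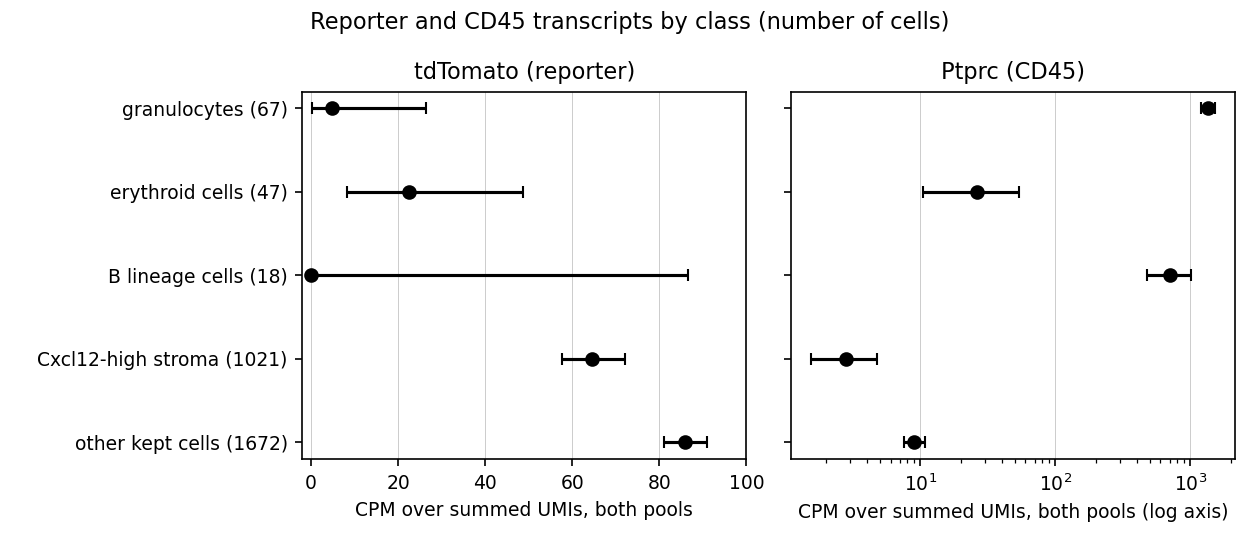
Level of tdTomato (left, linear axis) and of Ptprc, the gene of CD45 (right, log axis), in CPM over the summed UMIs of both pools, for each class of cells; bars are exact 95% Poisson intervals and the number of cells is in parentheses. Granulocytes sit at 4.72 CPM of tdTomato and 1345 CPM of Ptprc, and Cxcl12-high stroma at 64.6 and 2.83 CPM.

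The granulocytes spread over 2 ranges of S100 level, and the pools filled them differently. In the immobilized pool S100a8 plus S100a9 ran from 239 to 2662 CP10k with a median of 399, and in the control pool from 349 to 2825 CP10k with a median of 1833. A limit of 1000 CP10k, placed after the values were seen, left 28 of 34 immobilized cells below it (82.4%, 65.5 to 93.2) and 11 of 33 control cells (33.3%, 17.96 to 51.8). The cells nearest to it had 909 and 1508 CP10k in the immobilized pool, and 855 and 1017 CP10k in the control pool. S100 level chose the cells and the split between ranges is a description. The immobilized pool had 9 cells at 200 to 300 CP10k and the control pool 0, and 8 immobilized and 1 control cell lay at 100 to 200 CP10k, outside the limit. In all other kept cells S100a8 and S100a9 together stood at 222 CPM in the immobilized and 148 CPM in the control pool.

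Depth, gene length and mitochondrial share differed between the ranges in both pools, of which the mitochondrial share had a part in the choice through its 10% limit. Median depth was 1397 UMIs in the lower and 4029 in the upper range of the immobilized pool, and 1451 and 5092.5 in the control pool. Genes that span 100 kb or more gave 23.9% of UMIs in the lower range (23.5 to 24.3) and 10.6% in the upper range (10.2 to 11.04) of the immobilized pool. In the control pool they gave 21.6% in the lower (21.1 to 22.2) and 8.82% in the upper range (8.66 to 8.98). The median over all other kept cells was 25.8% in the immobilized and 23.8% in the control pool. The median mitochondrial share was 1.22% in the lower and 0.275% in the upper range of the immobilized pool, and 1.52% and 0.327% in the control pool. Across the 67 cells S100 level followed depth with a Spearman rho of 0.77 and the long-gene share with -0.85. These are descriptions over cells of shared libraries, and S100 UMIs are themselves part of depth.

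The genes that set the ranges apart differed in length. Among 223 genes with at least 100 UMIs, summed over both pools, the 15 that were highest in the lower range relative to the upper had a median span of 281 kb. They included the carboxypeptidase gene Cpa6 (1484 CPM in the lower and 75.4 CPM in the upper range), the cyclic AMP phosphodiesterase gene Pde4d (1756 and 213 CPM), the transporter gene Abca13 (1590 and 247 CPM) and the nuclear envelope gene Syne1 (4649 and 1241 CPM). Of the summed UMIs, the immobilized pool gave 45624 and the control pool 20417 in the lower range, and 23136 and 122678 in the upper range. Within the control pool alone Cpa6 had 588 CPM in the lower and 81.5 CPM in the upper range, Pde4d 1420 and 220.1 CPM, Abca13 1518 and 253 CPM and Syne1 5094 and 1296 CPM. The 15 at the other end had a median span of 3.83 kb. Among them were Retnlg (2695 CPM in the lower and 22165 CPM in the upper range), Tmsb4x, which binds actin monomers (3861 and 17440 CPM), Actb (2453 and 9320 CPM) and Gapdh (197 and 1111 CPM). S100a8 and S100a9 themselves are in this group by the split.

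**Figure D2:**
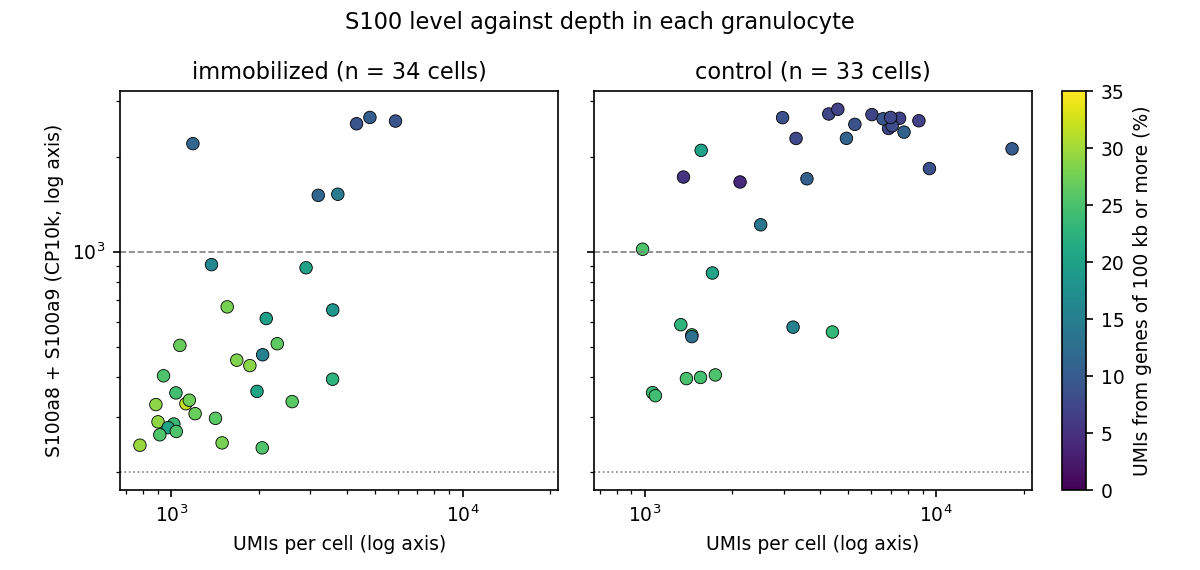
Summed S100a8 and S100a9 level (CP10k, log axis) against UMIs per cell (log axis) for each granulocyte of the immobilized (left) and control pool (right), coloured by the percentage of UMIs from genes that span 100 kb or more; the dotted line is the 200 CP10k minimum and the dashed line the 1000 CP10k limit between ranges. Of the immobilized cells 28 lie below the dashed line and 6 above it; of the control cells 11 lie below and 22 above.

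Both pools held cells at the granule-filling and at the late stage. Each cell was placed by a stage index, the log2 ratio of its late neutrophil genes (20 genes, among them Retnlg, Mmp9, Cxcr2, Il1b and Csf3r) to its specific granule genes (9 genes, among them Camp, Ltf and Ngp), in CP10k with 1 added to each. The index was above 0 in 11 of 34 immobilized cells (32.4%, 17.4 to 50.5) and in 11 of 33 control cells (33.3%, 17.96 to 51.8). Its median was -2.90 in the immobilized pool (exact 95% interval -4.03 to 0.87) and -2.13 in the control pool (-3.49 to 1.57). It ran from -8.96 to 4.73 in immobilized and from -8.91 to 5.54 in control cells. The pools overlapped over almost the whole range. Bounds on the difference between medians, -5.60 to 4.36, were taken from the opposite ends of the 2 intervals and are wider than a 95% interval. Of the cells with at least 1000 UMIs, 7 of 28 immobilized and 11 of 32 control cells had an index above 0, both before and after thinning, and 4 of the 6 shallower immobilized cells had one. Both ranges of S100 level held both stages: 7 of 28 immobilized and 3 of 11 control cells of the lower range lay above 0, and 4 of 6 and 8 of 22 of the upper range. Only 4 immobilized and 2 control cells lay within 1 of 0.

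**Figure D3:**
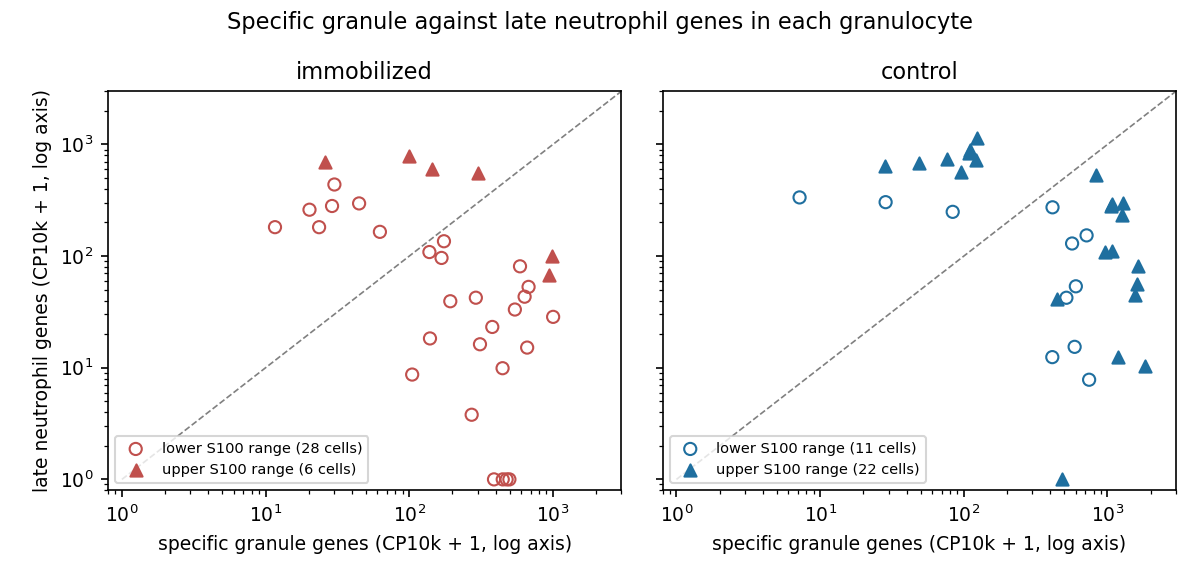
Specific granule genes (x) against late neutrophil genes (y), summed CP10k plus 1 on log axes, for each granulocyte of the immobilized (left) and control pool (right); open circles are cells of the lower and filled triangles cells of the upper S100 range, and the dashed line marks a stage index of 0. In each pool 11 cells lie above the line.

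The specific granule genes varied together from cell to cell. Ltf encodes lactoferrin, Camp the cathelicidin antimicrobial peptide, and Ngp a granule protein of the cystatin-related family. All 3 lie on chromosome 9 within 1.20 Mb, at chr9:109847379-109849617 on the minus strand (Camp), chr9:110419747-110423012 on the plus strand (Ngp) and chr9:111019271-111042767 on the plus strand (Ltf), mm10. Over the 67 cells Camp followed Ngp with a Spearman rho of 0.84 and Ltf with 0.75, and Ngp followed Ltf with 0.79. Against Retnlg, a late gene on chromosome 16 that encodes a resistin-like secreted protein, the rho was -0.48 for Camp, -0.45 for Ngp and -0.41 for Ltf. Camp ran from 0 to 576 CP10k with a median of 46.0 in immobilized cells, and from 0 to 621 with a median of 86.3 in control cells. Ngp ran from 0 to 327 CP10k with a median of 61.5 in immobilized cells, and from 0 to 800 with a median of 165.5 in control cells. Ltf ran from 0 to 248 CP10k with a median of 57.7 in immobilized cells, and from 0 to 280 with a median of 119 in control cells. The highest cells of each gene were in the control pool, and the pools overlapped from 0 up to the highest immobilized cell.

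The promoters of these neighbouring genes are shown because C/EBP factors, and Cebpe above all, are known to drive specific granule genes. Each runs from 250 bases before to 50 after the RefSeq start on GRCm38.p6, 5′ to 3′ on the gene's strand, with matches to the palindrome-like C/EBP motif TTGCNNAA on either strand in capitals. They cover chr9:109849407-109849706 (Camp), chr9:110419558-110419857 (Ngp) and chr9:111019042-111019341 (Ltf).
Camp: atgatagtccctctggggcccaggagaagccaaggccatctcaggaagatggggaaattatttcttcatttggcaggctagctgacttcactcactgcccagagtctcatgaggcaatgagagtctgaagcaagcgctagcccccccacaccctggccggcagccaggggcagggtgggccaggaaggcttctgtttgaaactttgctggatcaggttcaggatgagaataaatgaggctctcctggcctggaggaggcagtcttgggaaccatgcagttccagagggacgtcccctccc
Ngp: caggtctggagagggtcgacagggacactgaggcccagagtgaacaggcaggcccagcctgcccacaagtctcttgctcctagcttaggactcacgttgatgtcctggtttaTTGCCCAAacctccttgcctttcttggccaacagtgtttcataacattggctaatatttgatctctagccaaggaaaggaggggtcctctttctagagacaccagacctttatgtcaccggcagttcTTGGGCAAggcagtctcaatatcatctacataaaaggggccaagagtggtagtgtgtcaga
Ltf: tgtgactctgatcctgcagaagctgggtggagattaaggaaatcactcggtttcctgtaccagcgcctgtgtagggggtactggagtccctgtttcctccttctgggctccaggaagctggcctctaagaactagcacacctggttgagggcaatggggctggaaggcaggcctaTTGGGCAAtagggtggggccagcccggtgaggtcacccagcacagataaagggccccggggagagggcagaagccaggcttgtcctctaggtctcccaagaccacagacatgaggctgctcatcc
The Ngp window held 2 matches, which start 138 and 11 bases before the start site, the Ltf window 1 match 75 bases before it, and the Camp window none. Of 32851 mouse promoters of this length, 10.8% held the motif. Cebpe had 189 CPM in immobilized and 259 CPM in control granulocytes, and 0.295 CPM in all other control cells.

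Among 1799 genes outside both lists, those that followed the index most closely at its late end were Srgn, the granule proteoglycan serglycin (Spearman rho 0.70), the chemokine gene Cxcl2 (0.68), the cystine transporter gene Slc7a11 (0.67), the inflammasome sensor gene Nlrp3 (0.66) and S100a6 (0.66). Cebpb, the C/EBP factor of mature cells, followed at 0.65 and the iron store gene Fth1 at 0.65. At the granule end were Pde4d (-0.71), Abca13 (-0.68), Cybb, the catalytic chain of the NADPH oxidase (-0.64), and the splicing factor genes Mbnl3 and Mbnl1 (-0.61 each). Division genes sat at the granule end, with a rho of -0.47 between the stage index and the 14 cell cycle genes. Mki67 was seen in 9 immobilized cells, 1 of them with an index above 0, and in 6 control cells, 0 of them above 0. The index did not follow depth (rho -0.04).

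**Figure D4:**
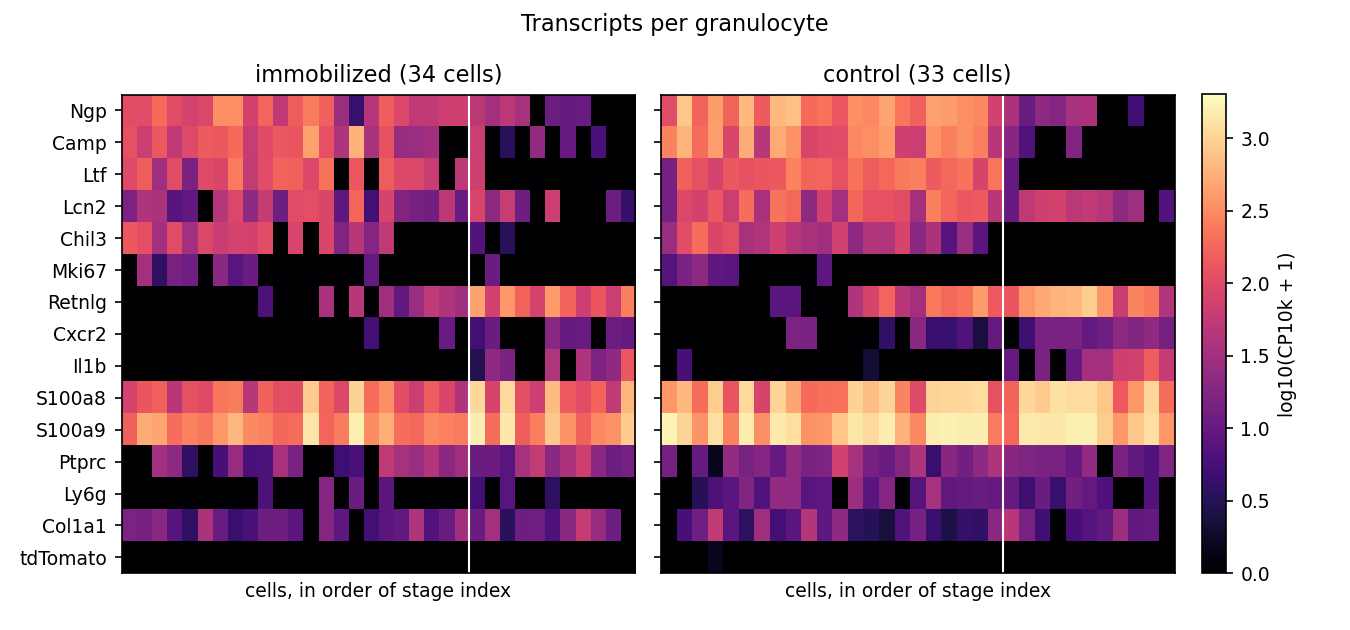
Transcript levels as log10(CP10k + 1) in each granulocyte of the immobilized (left, 34 cells) and control pool (right, 33 cells), with cells in order of the stage index from left to right and a white line at an index of 0. The highest levels of Ngp, Camp, Ltf and Chil3 lie to the left of the line and those of Retnlg, Cxcr2 and Il1b to its right in both pools. Camp, Ltf, Ngp, Retnlg, Cxcr2 and Il1b are among the genes that make up the index, so their order is set by it. Some control cells to the left also have Retnlg, up to 410 CP10k, or Cxcr2, up to 19.3 CP10k. A tdTomato UMI is present in 1 control cell.

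Primary granule transcripts were seen mostly in the lower S100 range of the immobilized pool. The 7 primary granule genes summed to 44 UMIs in 8 of 34 immobilized cells and to 6 UMIs in 4 of 33 control cells, or 640 CPM and 41.9 CPM. The lower range, with 28 immobilized and 11 control cells, held 43 of the immobilized and 0 of the control UMIs, and the upper range 1 and 6. Elane, the gene of neutrophil elastase, had 19 UMIs in 5 immobilized cells and 0 in control cells, and 1 cell held 11 of these UMIs. With the control sum set at the limit of 3 counts, this is 13.2-fold higher by CPM. The exact interval of its log2 ratio relative to the median gene, as defined below, starts at 3.02. All 19 Elane UMIs lay in the lower range, where the interval starts at 1.20. Without the highest Elane cell of each pool it starts at 1.63 over all cells and at -0.27 in the lower range. Prtn3, the gene of proteinase 3, had 11 and 1 UMIs, and Mpo, the gene of myeloperoxidase, 6 and 1 UMIs. A single immobilized cell held 23 of the 44 UMIs, and the next highest held 7. The primary granule cells of both pools lay at the granule end of the stage index, with a median index of -3.43 in the immobilized and -4.93 in the control pool. Olfm4, a specific granule gene carried by part of the neutrophils, had 14 UMIs in 3 immobilized cells and 0 in control cells.

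For gene levels, UMIs were summed over the granulocytes of a pool and compared as CPM. A gene was compared where it had at least 20 UMIs in 1 pool, which is 291 CPM in the immobilized and 140 CPM in the control pool, and 1101 genes passed. The median log2 ratio of immobilized over control was 0.26 over the 497 genes with a mean of at least 300 CPM, and the log2 ratios below are relative to this median gene. On that scale 117 genes (10.6%) were at least 2-fold higher and 170 (15.4%) at least 2-fold lower in the immobilized pool. By CPM alone they were 186 (16.9%) and 102 (9.26%), so 64.6% of the genes past 2-fold were higher by CPM and 40.8% relative to the median gene. Nothing can be said from 1 pool per group about the spread between mice, and the pools also differ in the share of cells in each S100 range. Values within the ranges are therefore given beside many of those over all cells, each relative to its own median gene, which lay at -0.13 in the lower and 0.26 in the upper range. In the lower range 400 genes were compared, of which 16.5% were at least 2-fold higher and 3.5% at least 2-fold lower, and in the upper range 790 genes, of which 4.43% and 19.6% were. These splits are set by the minimum of 20 UMIs, which is 438 CPM in the immobilized and 980 CPM in the control pool of the lower range, and 864 and 163 CPM in the upper range, so nothing is read from them.

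Specific granule genes were lower in immobilized granulocytes as a whole, and closer to the median gene in the lower range. Of 9 genes, 8 were compared: 2 were higher (Cd177 and Fcnb) and 6 lower, of which 0 and 3 were past 2-fold, and their median was -0.76, against -0.06 over all genes compared. The list stood at 37100 CPM in immobilized and 83993 CPM in control cells. Ngp had 8377 CPM in immobilized and 29798 CPM in control cells, a relative log2 ratio of -2.09 (-2.22 to -1.97). Camp had 11155 and 25445 CPM (-1.45, -1.57 to -1.34). Ltf had 6399 and 10643 CPM (-0.99, -1.15 to -0.84). Lcn2, whose protein binds bacterial iron carriers, had 4901 and 11691 CPM (-1.51, -1.69 to -1.35). The median of the list was 0.03 in the lower range, against 0.26 over all genes there, and -1.08 in the upper range, against -0.26. In the lower range Camp stood at 0.09, Ngp at -0.04, Ltf at -0.63 and Lcn2 at -0.56. In the upper range Camp stood at -0.89 and Ngp at -3.51, where the immobilized sum rests on 6 cells, 4 of them with an index above 0.

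Late genes were mostly lower over all cells and in the lower range, but not in the upper range. Over all cells 18 of 20 late neutrophil genes were compared, with 4 higher and 14 lower, 1 and 6 of them past 2-fold, and a median of -0.73. Over all genes compared 10.6% were past 2-fold higher and 15.4% lower, with a median of -0.06. The list stood at 20797 CPM in immobilized and 29190 CPM in control cells. In the lower range 7 of 7 compared were lower, with a median of -1.10, and in the upper range 11 of 18 were higher, with a median of 0.15. The medians over all genes compared there were 0.26 in the lower and -0.26 in the upper range. Retnlg had 11155 CPM in immobilized and 18470 CPM in control cells (-0.99, -1.11 to -0.87), but stood at -0.20 in the lower and 0.17 in the upper range. The chemokine receptor gene Cxcr2, through which neutrophils leave the marrow, had 262 and 454 CPM (-1.03, -1.90 to -0.29). Il1b, the gene of the cytokine interleukin 1 beta, had 1091 and 943 CPM (-0.05, -0.48 to 0.37), and stood at -2.43 in the lower and 1.44 in the upper range. A single immobilized cell held 42 of its 75 UMIs and a single control cell 49 of 135, and without the highest 2 cells of each pool Il1b stood at -0.99 (-1.85 to -0.25) over all cells and 0.23 (-1.26 to 1.33) in the upper range. Stfa2l1, a stefin gene, had 1193 and 552 CPM (0.85, 0.39 to 1.31), and Ifitm1, an interferon-induced membrane protein gene, 742 and 105 CPM (2.53, 1.71 to 3.50). In 1 immobilized cell lay 24 of the 51 Ifitm1 UMIs.

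**Figure D5:**
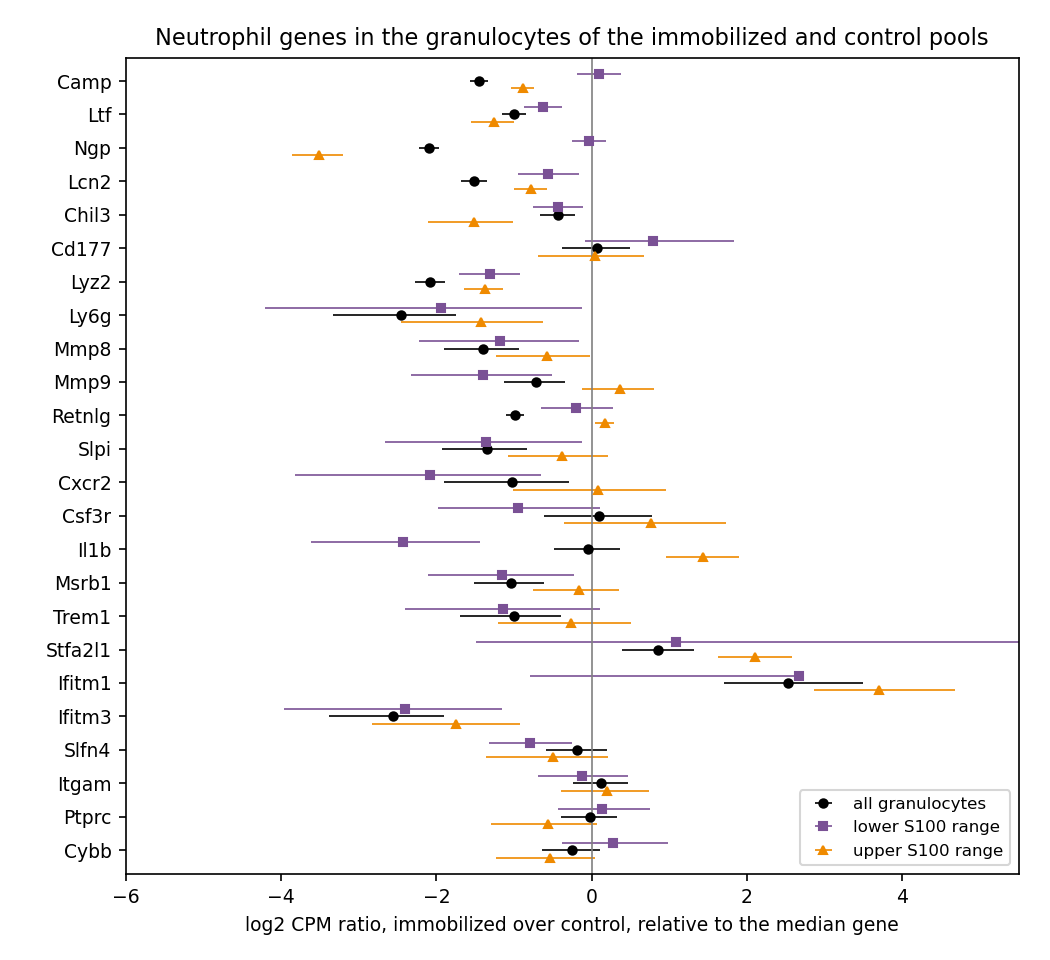
Log2 CPM ratio of immobilized over control granulocytes, relative to the median gene, for 24 neutrophil genes over all cells (black circles), the lower S100 range (purple squares) and the upper S100 range (orange triangles); bars are 95% counting intervals, and bounds that are infinite or beyond the axis are not drawn in full. Ifitm3, Lyz2 and Ly6g lie left of 0 in all 3 sets, while Itgam lies between -0.13 and 0.20.

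Some genes were lower in immobilized granulocytes in both ranges. Lyz2, the gene of lysozyme M, had 3563 CPM in immobilized and 12572 CPM in control cells, and ran from 0 to 117 CP10k with a median of 17.6 in immobilized and from 3.097 to 226 CP10k with a median of 90.2 in control cells. Its relative log2 ratio was -2.08 (-2.28 to -1.89) over all cells, -1.31 (-1.71 to -0.92) in the lower and -1.38 (-1.64 to -1.14) in the upper range. Ly6g, the surface protein by which mouse neutrophils are known, had 233 and 1090 CPM, at -2.45 (-3.33 to -1.75) over all cells, -1.94 (-4.21 to -0.13) in the lower and -1.42 (-2.46 to -0.63) in the upper range. The immobilized Ly6g sum was 16 UMIs, and the lower range held 4 immobilized and 8 control Ly6g UMIs. Within the lower range the pools still differed in median S100 level, at 347 CP10k in immobilized and 538 CP10k in control cells. The part of that in these ratios was not tested. In all other kept cells Lyz2 had 27.5 CPM in the immobilized and 38.4 CPM in the control pool. Of the other surface genes on the list, Cd24a stood at -1.24 (-2.24 to -0.42), Ly6c2 at -0.71 (-1.46 to -0.04), Itgam at 0.12 (-0.24 to 0.47) and Ptprc at -0.02 (-0.39 to 0.33).

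Of 10 genes on the interferon list 3 could be compared, and 2 of them, Ifitm3 and Isg15, were past 2-fold lower, while Slfn4 was not. Over all genes compared 15.4% were past 2-fold lower. Ifitm1, which is not on that list, was higher, as given above. The list stood at 1513 CPM in immobilized and 2935 CPM in control cells. Ifitm3, which blocks virus entry, had 262 CPM in immobilized and 1321 CPM in control cells, at -2.56 (-3.38 to -1.90) over all cells, -2.40 (-3.96 to -1.15) in the lower and -1.74 (-2.83 to -0.93) in the upper range. Isg15, a ubiquitin-like protein gene, had 0 UMIs in immobilized cells and 26 in 6 control cells. With the immobilized sum set at the limit of 3 counts, this is 4.16-fold lower by CPM. The exact interval of its relative log2 ratio ends at -1.92. Slfn4 had 1222 and 1160 CPM (-0.18, -0.58 to 0.20). Isg15, Rsad2, Ifit1, Ifit2 and Ifit3 together had 1 UMI in 1 immobilized cell and 54 UMIs in 10 control cells, of which 1 cell held 16. Other kept cells also had less in the immobilized pool, with Isg15 at 15.3 CPM in the immobilized and 52.2 CPM in the control pool and Ifitm3 at 302 and 469 CPM, and the part of free RNA in the difference was not tested. The chemokine genes Ccl3 and Ccl4 had 0 UMIs in immobilized cells and 32 in 5 control cells.

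Immediate early genes, which cells switch on shortly after a stimulus, were mostly lower over all cells. Of 11 stress genes 9 were compared, 1 higher and 8 lower, 0 and 6 of them past 2-fold, with a median of -1.55. Over all genes compared 10.6% were past 2-fold higher and 15.4% lower, with a median of -0.06. In the lower range 2 could be compared and both were higher, with a median of 1.38. The 11 together stood at 2345 CPM in immobilized and 3380 CPM in control cells of that range, so nothing is read from the 2. In the upper range 2 were higher and 7 lower, with a median of -1.42. Zfp36, whose protein shortens the life of cytokine transcripts, had 131 CPM in immobilized and 475 CPM in control cells (-2.05, -3.31 to -1.11), and the AP-1 gene Jun had the same counts of 9 and 68 UMIs. Egr1, an early transcription factor gene, had 145 and 419 CPM (-1.73, -2.92 to -0.81). Fos had 596 and 349 CPM (0.51, -0.12 to 1.13), and stood at -1.03 in the lower and 1.77 in the upper range. In other kept cells Jun had 417 CPM in the immobilized and 618 CPM in the control pool, and Egr1 290 and 395 CPM.

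The remaining neutrophil lists held genes in both directions. Of 6 NADPH oxidase genes 2 were higher and 4 lower, with a median of -0.43. Cyba, the small membrane chain of the enzyme, had 727 CPM in immobilized and 1502 CPM in control cells (-1.30, -1.78 to -0.86). Of 9 gelatinase and secretory granule genes 6 were compared, 1 higher and 5 lower, with a median of -0.86, while in the upper range 3 were higher and 3 lower, with a median of -0.11. Among them Mmp8, neutrophil collagenase, had 654 and 1447 CPM (-1.39, -1.91 to -0.94), and Slpi, a protease inhibitor, 524 and 1125 CPM (-1.35, -1.93 to -0.84). Of 9 retention and release genes 6 were compared, 2 higher and 4 lower, with a median of -0.21, while in the upper range 6 of 6 were higher, with a median of 0.29, and in the lower range 2 of 2 lower. Over all genes compared the median was -0.26 in the upper and 0.26 in the lower range. Of 12 granulopoiesis factors 9 were compared, 2 higher and 7 lower, with a median of -0.19. In the lower range 2 of 2 were higher, with a median of 0.49, against 0.26 over all genes compared there. The 12 together stood at 3617 CPM in immobilized and 4506 CPM in control cells of that range, so nothing is read from the 2. In the upper range 6 of 9 were higher, with a median of 0.19. Over all cells Runx1 was the 1 past 2-fold upward, at 756 and 314 CPM (1.00, 0.40 to 1.61), and other kept control cells had 720 CPM of it. Of 14 cell cycle genes 3 were compared, 2 higher and 1 lower, with Top2a at 364 and 126 CPM (1.26, 0.34 to 2.23) and Hmgb2 at 1309 and 1649 CPM (-0.59, -0.96 to -0.24). A single control cell held 14 of the 18 control Top2a UMIs. The 14 genes together stood at 2807 CPM in immobilized and 2628 CPM in control cells (-0.16, -0.42 to 0.09). Their sum stood at 1.01 in the lower and -0.92 in the upper range. The deepest control cell held 206 of their 376 control UMIs. Of 14 cytokine genes 2 were compared, Il1b and Cxcl2. Cxcl2, which draws in neutrophils, had 1527 CPM in immobilized and 964 CPM in control cells (0.40, 0.02 to 0.78), with UMIs in 7 immobilized and 15 control cells. Of its UMIs 2 immobilized cells held 49 and 35 of 105, and without the highest 2 cells of each pool Cxcl2 stood at -0.84 (-1.64 to -0.14).

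Of 7 sort antigen and surface genes 5 were compared, of which 0 were past 2-fold higher and 2, Ly6g and Cd24a, past 2-fold lower, with a median of -0.71. Over all genes compared 10.6% were past 2-fold higher and 15.4% lower, with a median of -0.06. Of 9 S100 and alarmin genes 7 were compared, 0 higher and 7 lower, 0 and 4 of them past 2-fold, with a median of -1.02, but S100a8 and S100a9 in this list chose the cells. S100a6, a calcium-binding relative, had 1818 CPM in immobilized and 3075 CPM in control cells (-1.02, -1.32 to -0.73), and stood at 0.28 in the lower and 0.01 in the upper range. Anxa1, the gene of the phospholipid-binding protein annexin A1, had 2647 and 3920 CPM (-0.83, -1.08 to -0.59). It stood at -0.15 (-0.64 to 0.37) in the lower and -0.44 (-0.80 to -0.11) in the upper range.

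Beyond the lists, 361 genes could be ranked, and the 12 at each end rest on few UMIs. Those highest in the immobilized pool had 20 to 87 UMIs there and 4 to 25 in the control pool. Ncapg2, a condensin gene that acts in mitosis, had 22 UMIs in 11 immobilized cells and 4 UMIs in 2 control cells (3.12, 1.70 to 5.25). Cpa6 had 87 UMIs in 15 immobilized cells and 22 UMIs in 9 control cells (2.75, 2.09 to 3.52), and stood at 1.76 in the lower and -0.66 in the upper range. Mpp7, a scaffold gene of cell polarity, had 34 and 10 UMIs (2.51, 1.51 to 3.74). Atrn, the gene of attractin, had 54 and 25 UMIs (1.89, 1.20 to 2.65), and stood at 0.41 in the lower and 2.71 in the upper range. March1, which marks membrane proteins with ubiquitin, had 32 and 13 UMIs (2.06, 1.12 to 3.15). The others were Ifitm1, given above, and Sh3bgrl, Sipa1l2, Zfp131, Lcorl, Gsap and Dock10, at 1.82 to 2.31. In the upper range, where the immobilized sum has 6 cells, the direction turned for Cpa6 and Dock10, and Ncapg2 had 0 UMIs in immobilized and 4 in control cells.

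Those lowest in the immobilized pool included, beside Isg15, Ifitm3 and Ly6g, 9 genes with 1 to 4 UMIs in immobilized cells. Atf3, a stress-induced transcription factor gene, had 1 UMI in immobilized cells and 31 UMIs in 6 control cells (-3.60, -9.51 to -1.57). Cmah, which makes a form of sialic acid, had 1 UMI and 22 UMIs in 11 control cells (-3.11, -9.03 to -1.03). Mgst2, an enzyme gene of leukotriene synthesis, had 4 UMIs in 3 immobilized cells and 39 UMIs in 18 control cells (-2.34, -4.44 to -1.02). In the lower range its direction turned, with 4 immobilized and 1 control UMI (0.56, -2.36 to 6.60), and the upper range held 0 and 38. Nt5e, the gene of the nucleotidase CD73, had 4 and 38 UMIs (-2.30, -4.40 to -0.98). Ube2s, AA467197, Osgin1, Pi16 and Ifi27l2a lay between -2.72 and -2.23. The intervals at this depth are wide and most of these genes are seen in few immobilized cells.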

How the data were processed

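The authors deposited UMI count matrices without normalization. Cell Ranger 7.0.0 made them, per the file headers, on mm10, per the submitters' processing notes, and the annotation used was not given in the sources used here. Of 32286 feature identifiers, 32235 matched GENCODE vM21 on GRCm38. Each group is 1 pool of mice, deposited as 2 sequencing lanes that share nearly all barcodes. Lane 1 was used, with 9960011 UMIs in the immobilized and 10732720 UMIs in the control pool, and lane 2 as an alternative. All 34 immobilized and 33 control granulocytes met the rule again in lane 2. The pools shared 3 barcodes, 1 of them a granulocyte in the immobilized pool. Scrublet called 7 immobilized and 21 control barcodes as doublets, 0 and 1 of them granulocytes, and these were kept in the main values.

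UMIs were summed per pool. Levels have exact Poisson intervals, shares exact Clopper-Pearson intervals and ratios exact conditional binomial intervals, all at 95% and for counting error only. The limit for a count of 0 is 3 counts. A gene was compared with at least 20 UMIs in 1 pool. Called means past 2-fold, since no test is possible. The genes named are the 12 highest and 12 lowest ratios with a UMI in 10% of cells of 1 pool, an interval without a ratio of 1, the same sign in lane 2 and after scaling to the median gene, and a level not below that of other cells, beside the members of the lists and the genes that follow the stage index. The members and lists were chosen with earlier results of these data known. Erythroid cells were to be found by haemoglobin, which found 0 cells. They were then chosen, after seeing the data, by 3 or more summed UMIs of erythroid genes, among them Slc4a1, Alas2, Ank1, Epb42 and Sptb. Some items are not reported here. B lineage cells had at least 10 CP10k of Cd79a and Cd79b. Summing and intervals were tested on simulated data. Python 3.11.15, numpy 2.4.6, scipy 1.17.1, pandas 2.3.3, scanpy 1.11.5 and matplotlib 3.10.9 were used. Alternatives covered the S100, Cxcl12, gene and mitochondrial limits, lanes, doublets, depth, sex calls, count minimum and scaling.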

Additional observations from a re-analysis of the deposited data

How the results depend on the processing

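No paired analysis was possible because each group is 1 pool and the lanes are runs of the same barcodes. Ratios here are log2 by CPM, without the median gene. The share of granulocytes differed by 0.12 percentage points, and the median stage index by -0.77. Bounds were taken from the opposite ends of the intervals of the 2 pools, at -1.55 to 1.78 points and -5.60 to 4.36. Every alternative lay within them, but they are too wide to show whether these results depend on the processing. The share of cells in the upper S100 range differed by -49.0 points. The S100 ranges and the deepest control cell were chosen as alternatives after seeing the data.

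Specific granule genes stood at -1.18. They gave -1.31 and -0.93 with S100 minimums of 100 and 500 CP10k, -0.33 in the lower range, -0.83 thinned to 1000 UMIs, -1.10 in female-called cells, -1.25 in lane 2, -0.99 as a mean over cells, -1.44 relative to the median gene, -1.08 with at least 750 genes, -0.98 with no Cxcl12 limit and -1.09 without the deepest control cell. Late genes stood at -0.49. They gave -0.59 and 0.021 with S100 minimums of 100 and 500, -0.91 in the lower and 0.59 in the upper range, -0.84 thinned, -1.96 in female-called cells, -0.93 as a mean over cells, -0.75 relative to the median gene, -0.37 with 750 genes and -0.68 without the deepest cell. The late genes thus turned direction under 2 alternatives, and the cause was not tested.

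Genes at least 2-fold higher numbered 186, against 69 with an S100 minimum of 500, 58 in the lower and 74 in the upper range, 499 and 37 with count minimums of 10 and 50 UMIs, 117 relative to the median gene and 492 over both lanes. Those lower numbered 102, against 20 in the lower range, 217 and 45 with count minimums of 10 and 50, 170 relative to the median gene, 155 with no Cxcl12 limit and 175 over both lanes. More or fewer genes or cells are compared under most of these. The tdTomato level of 4.72 CPM was 0 when thinned and 0 without the deepest control cell.

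Other reversals were the cytokine list, at -0.36 in the lower range, -0.29 thinned, -1.69 in female-called cells and -0.26 as a mean over cells, the gelatinase list, at 0.37 in the upper range, and the surface list, at 0.022 thinned. Among genes, the upper range gave -0.40 for Cpa6, 0.34 for Cxcr2, -0.53 for Dock10 and 0.43 for Retnlg. Cxcl2 gave -3.27 in female-called cells and -0.58 without the highest 2 cells of each pool, an alternative chosen after seeing the data, and Fos -1.16 in the lower range, -0.21 thinned and -0.69 in female-called cells. The cause was not tested. Male-called cells, 4 immobilized and 1 control, gave no value. Median-gene scaling was not run for tdTomato, nor thinning and sex calls for the gene counts. With 68760 immobilized UMIs, a gene under 43.6 CPM could be missed there.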
